A study of Oryza sativa Japonica Group with 6 samples.

Results

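In root tips of plt345 rice, 127 genes that were already well expressed in the wild type stood at least 4-fold higher. Of these, 16 have a checked symbol and 111 have none. The named ones include genes for making nicotianamine, a metal transporter, a sucrose exporter, metallothioneins, an arginine decarboxylase, a chitinase and a cystatin. A gene was taken as a member when its wild type mean was at least 100 normalized counts, its plt345 mean was at least 4 times that, and every plt345 library lay above every wild type library. Of the 31010 genes in the deposited table, 15739 had such a wild type mean, and 130 of these, 0.826%, met the whole rule. The other 3, the loci LOC_Os06g44750, LOC_Os02g57720 and LOC_Os03g01700 with ratios of 9.75, 4.97 and 4.72, were left out by the rule. The members were thus chosen by their normalized counts in these 6 libraries, so their levels are given as a description and no p-value is attached to them.

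The libraries came from root tips of about 0.8 cm cut from 7-day seedlings of Oryza sativa (Japonica group), kept on a Murashige and Skoog medium under a light and dark cycle, with no treatment. One genotype was the wild type cultivar Zhonghua 11 (ZH11) and the other was plt345, mutated together in PLT3, PLT4 and PLT5, with 3 libraries each. The labels give neither the kind of mutation nor the number of independent lines, and they do not say whether each library had its own batch of plants. P-values for other genes therefore cover no more than the spread over these libraries, some or all of which can be technical. A root tip holds many cell types, and in such bulk samples fewer cells of a type and less RNA per cell cannot be told apart.

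PLETHORA (PLT) proteins are AP2-type transcription factors that maintain the stem cells and dividing cells of the root meristem. Behind the meristem, root cells elongate and mature, and mature tissues take up metals and other nutrients. The root draws its sugar from the shoot through the phloem. Grasses acquire iron in part by secreting phytosiderophores of the mugineic acid family, which are made from nicotianamine, itself made from S-adenosylmethionine.

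All values below are normalized counts, which are not divided by gene length, so they compare a gene between genotypes and not 1 gene with another. The members' wild type means ran from just over 100 to 1964, with a median of 171, and their plt345 means from 438 to 12137, with a median of 1124. The ratio of plt345 to wild type had a median of 5.37, with 4.52 and 6.80 at the quartiles. Between 4-fold and 5-fold lay 54 genes, between 5-fold and 8-fold 52, between 8-fold and 10-fold 9, and 12 reached 10-fold or more. Among all 15739 genes with a wild type mean of at least 100, the median ratio was 0.942, 673 genes (4.28%) were at least 2-fold higher in plt345, and 356 (2.26%) were at least 2-fold lower. Of all 23166 genes with a mean of at least 10 over the 6 libraries, 13.9% were at least 2-fold higher. With the genotypes exchanged, the same rule was met by 23 of the 16629 genes with a plt345 mean of at least 100, or 0.138%.

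The genes nearest the limits differed little from each other. The members just above the 4-fold limit stood at 4.01, 4.03 and 4.04, and the genes just below it at 3.97, 3.97 and 3.95. At the wild type limit the lowest members had means just over 100, of 101.1 and of 101.4 normalized counts, and the highest genes left outside had 99.4, 99.4 and 99.1. These last stood 4.92, 7.10 and 12.5 times higher in plt345.

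**Figure D1:**
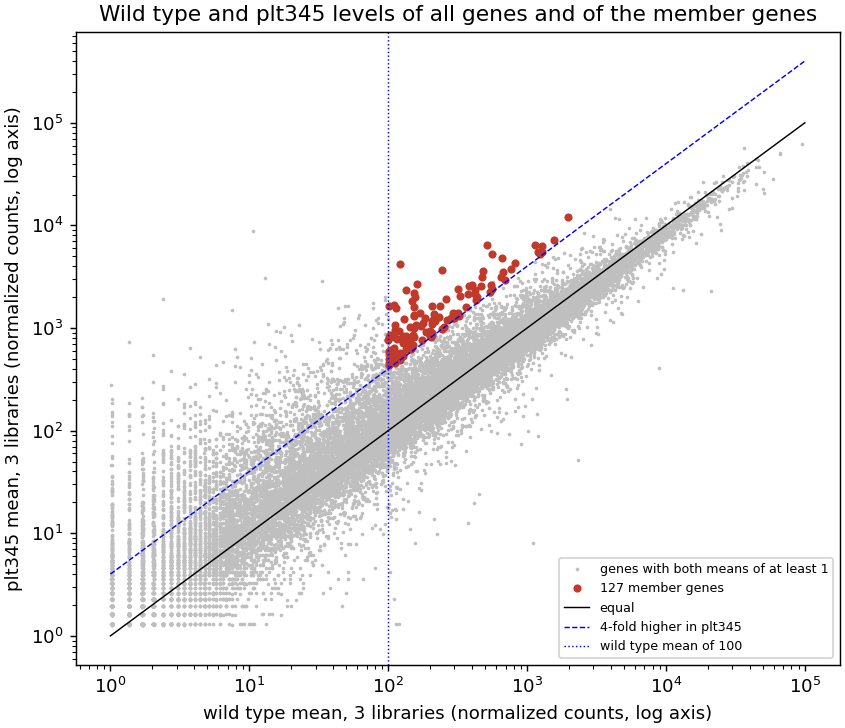
Mean normalized counts in wild type (x axis) against plt345 (y axis), both on log axes, with grey points for genes, red points for the 127 members, a solid line at equal levels, a dashed line at the 4-fold limit and a dotted line at a wild type mean of 100. The members fill the corner above the dashed line and right of the dotted line, from 438 to 12137 in plt345.

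Together the members took 0.176%, 0.171% and 0.173% of the normalized counts in the 3 wild type libraries and 1.10%, 1.09% and 1.08% in the 3 plt345 libraries. The mean share was 0.173% ± 0.00264 (SD, n = 3) in wild type and 1.09% ± 0.0129 (SD, n = 3) in plt345, a ratio of 6.29. A gap between single libraries was part of the rule, so its size is only described and adds no support. The lowest plt345 library stood at least 3.33 times above the highest wild type library in every member, with a median of 4.88, and at least 4 times above it in 99 of 127. Of all genes with a wild type mean of at least 100, 28.1% had every plt345 library above every wild type library.

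The libraries of a genotype lay close together. The median coefficient of variation over the members was 6.35% in wild type and 3.37% in plt345, against 4.20% and 3.98% over all genes with a wild type mean of at least 100. This measure also depends on read number, which the rule made lower in wild type, and the comparison was not matched for it. The widest coefficient of variation of a member was 22.1% in wild type and 11.1% in plt345. Replicate 1 was the highest plt345 library in 67 members, replicate 2 in 38 and replicate 3 in 22. How often this holds over all genes was not counted, so it may not be particular to the members.

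Larger ratios were found mostly among members low in wild type. The 72 members with a wild type mean of 100 to 200 had a median ratio of 5.68 and held 10 of the 12 genes at 10-fold or more. The 37 with a mean of 200 to 500 had a median of 5.26, and the 18 at 500 or more had a median of 4.94 and a largest ratio of 12.5. Because the wild type mean is the denominator of the ratio and was also part of the rule, this order is a description of the list.

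The table names genes by LOC_Os identifiers, and 16 members carry a symbol that the reference table holds near the same place on the same chromosome, within 1 Mb. The loosest of these matches is that of MT1A, 0.588 Mb from the interpolated place, followed by TIP4;1 at 0.217 Mb. The other 111 have no checked name. For 5 of the 16 (MT1A, MT4A, OPR5, ADC2 and BGLU30) the symbol was looked up after the values were seen.

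Genes of nicotianamine and phytosiderophore synthesis, and a metal transporter gene, were among the named members. NAS2 (LOC_Os03g19420), a nicotianamine synthase gene, held 864, 797 and 814 normalized counts in the wild type libraries and 4349.7, 4190.5 and 4246 in the plt345 libraries, a ratio of 5.17. NAS3 (LOC_Os07g48980), another nicotianamine synthase gene, held 295, 282 and 271 in wild type and 1288, 1294 and 1186 in plt345, a ratio of 4.44. NAAT1 (LOC_Os02g20360), the nicotianamine aminotransferase gene at the next step towards mugineic acids, held 112, 155 and 139 in wild type and 641, 637 and 594 in plt345, a ratio of 4.61. In all of these genes the plt345 libraries lay close together, and above the wild type libraries as the rule required. NAAT1 had the widest relative spread in wild type. NRAMP1 (LOC_Os07g15460), of the NRAMP family of divalent metal transporters, held 251, 231 and 222 normalized counts in wild type and 1639, 1599.7 and 1675 in plt345, a ratio of 6.98.

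A list of iron and other metal genes, with 6 members in it, of which NAS2, NAS3, NAAT1 and NRAMP1 have a checked name, was read alongside. Of its 28 tested genes that are not members, 19 were higher in plt345 and 6 lower (limma-trend, Benjamini-Hochberg adjusted p under 0.05), and their median log2 fold change was 1.05. Over all 23166 tested genes 34.0% were higher and 34.0% lower, and their median log2 fold change was -0.01. With library totals in place of the deposited scaling, 60.9% of the calls were higher, against 50.1%. NAS1 (LOC_Os03g19427), the synthase gene beside NAS2, rose from 858 ± 50.1 to 3086 ± 32.8 (mean ± SD, n = 3), or 1.85 on the log2 scale (SE 0.04, adjusted p = 1.2e-22 in limma). Its ratio of 3.60 was short of the 4-fold limit. NAS1 and NAS2 resemble each other in sequence, and whether their reads were split correctly is unknown. NRAMP3 (LOC_Os06g46310), a metal transporter gene, rose by 0.58 on the log2 scale, from 638 ± 9.58 to 957 ± 3.39 (limma adjusted p = 2.5e-11).

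Some genes of the list lay under the wild type limit, so the rule could not take them whatever their ratio. YSL2, ZIP4, IRO3 and YSL15 were picked for mention after their values were seen. YSL2 (LOC_Os02g43370), a transporter gene for metal-nicotianamine complexes, rose 17.9-fold from 43.2 ± 7.29 to 773 ± 7.78 (limma adjusted p = 1.3e-21). ZIP4 (LOC_Os08g10630), a zinc transporter gene, rose 13.2-fold from 34.0 ± 3.68 to 451 ± 16.2 (limma adjusted p = 8.8e-20). IRO3 (LOC_Os03g26210), a bHLH gene of the iron response whose entry in the reference table also carries the synonym OsIRO2, rose 9.48-fold from 68.4 ± 11.8 to 649 ± 34.8 (limma adjusted p = 1.5e-19). The list also held genes that fell. ZIP1 (LOC_Os01g74110), a zinc transporter gene, fell 1.83-fold from 798 ± 60.1 to 437 ± 22.5 (limma adjusted p = 1.6e-12). YSL15 (LOC_Os02g43410), an uptake gene for iron-phytosiderophore, fell 1.72-fold from 209 ± 1.43 to 121 ± 5.11 (limma adjusted p = 7.6e-08). MTP1 (LOC_Os05g03780), a metal tolerance protein gene, stood at 903 ± 31.0 and 829 ± 12.3, and its call (limma adjusted p = 0.0207) was lost with library totals (adjusted p = 0.522) and when single libraries were left out (largest adjusted p = 0.0818).

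**Figure D2:**
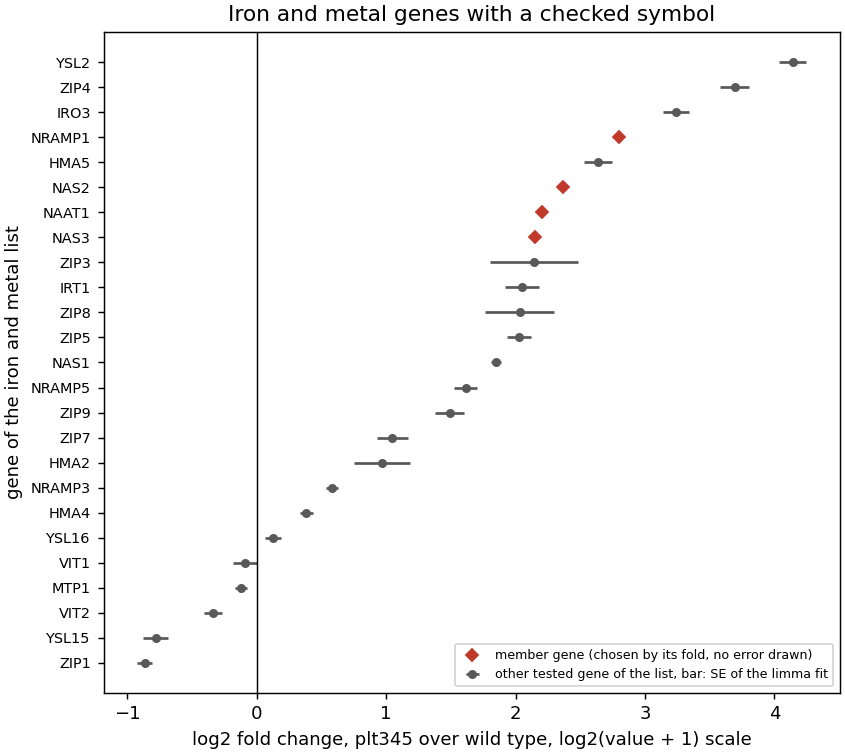
Fold change between plt345 and wild type in log2 units, from log2(value + 1) (x axis, positive where plt345 is higher), for the tested genes of the iron and metal list with a checked symbol (y axis), with red diamonds for members and grey points for other genes, whose bars are standard errors from limma. YSL2, ZIP4 and IRO3 lie right of every member, while ZIP1 and YSL15 lie left of 0.

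Metallothioneins are small cysteine-rich proteins that bind metals. MT1A (LOC_Os11g47809) held 1155, 1126 and 1134 normalized counts in wild type and 6653, 6271 and 6472 in plt345, a ratio of 5.68. MT4A (LOC_Os12g38270) held 106, 124 and 131 in wild type and 962, 891 and 944 in plt345, a ratio of 7.76. The groups were apart in both genes, as the rule required. A related gene too low in wild type for the rule, MT2B (LOC_Os05g02070), held 11.2, 15.3 and 5.12 in wild type and 8923, 9056 and 8380.0 in plt345, a change of 9.68 on the log2 scale (SE 0.18, adjusted p = 5.3e-24 in limma). It was picked for mention after its values were seen. Metallothionein genes can be similar in sequence, so how reads were split within the family is uncertain.

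Genes of sucrose export and cleavage were among the members. SWEET14 (LOC_Os11g31190), a sucrose exporter gene, held 589.8, 526 and 571 normalized counts in wild type and 5279, 5321 and 5121 in plt345, a ratio of 9.32, which ranks 15 of 127. SUS4 (LOC_Os03g22120), a sucrose synthase gene, held 105, 115 and 92.1 in wild type and 511, 492 and 583 in plt345, a ratio of 5.09. Of the 26 other tested genes of sugar transport and sucrose cleavage, 15 were higher and 7 lower, and their median log2 fold change was 0.48. The shares over all tested genes were 34.0% higher and 34.0% lower. SUS1 (LOC_Os03g28330), another sucrose synthase gene, went the other way, from 51202 ± 406 to 20466 ± 333, a 2.50-fold fall (limma adjusted p = 3.0e-24). The cell wall invertase genes CIN1 (LOC_Os02g33110) and CIN2 (LOC_Os04g33740) rose 2.50-fold and 1.86-fold (limma adjusted p = 1.7e-20 and 1.1e-17), and SUS2 (LOC_Os06g09450) rose 1.23-fold (limma adjusted p = 1.0e-09).

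TIP4;1 (LOC_Os05g14240), an aquaporin of the vacuolar membrane, held 112, 109 and 113 normalized counts in wild type and 525, 586 and 584 in plt345, a ratio of 5.08. The wild type libraries lay within a few counts of each other, and plt345 replicate 1 was below the other 2 of its genotype. The other aquaporins went mostly the other way: of 17 tested, 11 were lower and 4 higher, and their median log2 fold change was -0.40. For comparison, 34.0% of all tested genes were lower and 34.0% higher. One of the 4 higher aquaporins was PIP1;3 (LOC_Os02g57720), a plasma membrane gene and one of the loci left out by the rule. Its wild type mean of 571 ± 46.9 stood against 2838 ± 33.1 in plt345. It was picked for mention after its values were seen. The tonoplast gene TIP1;1 (LOC_Os03g05290) fell 1.44-fold and the plasma membrane genes PIP1;1 (LOC_Os02g44630) and PIP2;1 (LOC_Os07g26690) 2.01-fold and 1.69-fold, with limma adjusted p = 1.1e-13, 5.4e-20 and 1.0e-18.

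Members with roles in defence and hormone or amine synthesis formed a further group. CHT8 (LOC_Os10g39680), a chitinase gene whose symbol the reference table also links to Cht2, held 139, 119 and 144 normalized counts in wild type and 851, 829 and 836 in plt345, a ratio of 6.25. OC-I (LOC_Os01g58890), the gene of a cystatin that inhibits cysteine proteases, held 652, 723 and 699.8 in wild type and 2889.7, 2868 and 2979 in plt345, a ratio of 4.21. WRKY51 (LOC_Os04g21950), a WRKY transcription factor gene, held 312, 296 and 285 in wild type and 1263, 1304 and 1172 in plt345, a ratio of 4.19. The genotypes did not overlap in any of them, which the rule required of every member. Of the 15 other tested genes of the pathogenesis-related list, 12 were higher and 1 lower, and their median log2 fold change was 0.70. The chitinase genes CHT1 (LOC_Os06g51060) and CHT3 (LOC_Os06g51050) rose 20.1-fold, from 77.3 ± 4.61 to 1552 ± 38.1, and 2.88-fold (limma adjusted p = 1.2e-25 and 6.4e-19), the first from a level under the wild type limit. CEBIP (LOC_Os03g04110), a chitin receptor gene, rose 1.62-fold (limma adjusted p = 4.5e-13), and CERK1 (LOC_Os08g42580), its partner kinase, stood at 1384 ± 34.4 and 1485 ± 39.1 with a call that was lost when single libraries were left out (limma adjusted p = 0.0255, at most 0.108). Of 26 other tested genes entered as WRKY genes 19 were higher and 6 lower, and their median log2 fold change was 0.68. Beside both lists, the shares over all tested genes were 34.0% higher and 34.0% lower. Most of these 26 WRKY entries, and part of the pathogenesis-related list, have no checked symbol. WRKY71 (LOC_Os02g08440), which has one, rose 3.29-fold (limma adjusted p = 5.2e-15).

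ADC2 (LOC_Os04g01690), an arginine decarboxylase gene of polyamine synthesis, held 176, 183 and 126 normalized counts in wild type and 2762, 2721 and 2636 in plt345. Its ratio of 16.7 was the highest among the named members and ranks 3 of 127. Wild type replicate 3 was the lowest library of that gene, and the wild type coefficient of variation of 19.3% was the second widest of the list. OPR5 (LOC_Os06g11210), of the oxophytodienoate reductase family to which a jasmonate synthesis enzyme belongs, held 519.7, 474 and 459 in wild type and 3499.6, 3565 and 3609 in plt345, a ratio of 7.35. The reference table crosses this symbol with OPR6, so the locus identifies the gene. In the jasmonate list, which holds no member, 20 of 22 tested genes were higher and 0 lower, and their median log2 fold change was 0.77. Among all tested genes 34.0% were higher and 34.0% lower.

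Wall and glycoside genes lay near the lower limit. EXPA8 (LOC_Os01g14650), an alpha-expansin gene of wall loosening, held 258, 264 and 230.2 normalized counts in wild type and 1052, 1023 and 979 in plt345, a ratio of 4.06. BGLU30 (LOC_Os09g31430), a beta-glucosidase gene, held 108, 126 and 104 in wild type and 439, 458 and 478 in plt345, a ratio of 4.07. That the genotypes did not overlap in either gene was required by the rule. Of 19 other tested genes of expansins and wall enzymes, 12 were higher and 4 lower, and their median log2 fold change was 0.42. Over all tested genes the shares were 34.0% higher and 34.0% lower. EXPB2 (LOC_Os10g40710) rose 1.75-fold and CSLF6 (LOC_Os08g06380), of wall glucan synthesis, fell 1.33-fold (limma adjusted p = 1.5e-17 and 9.3e-11). EXPB4 (LOC_Os10g40730) stood at 6369.6 ± 297 and 6249 ± 92.2 (limma adjusted p = 0.471).

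**Figure D3:**
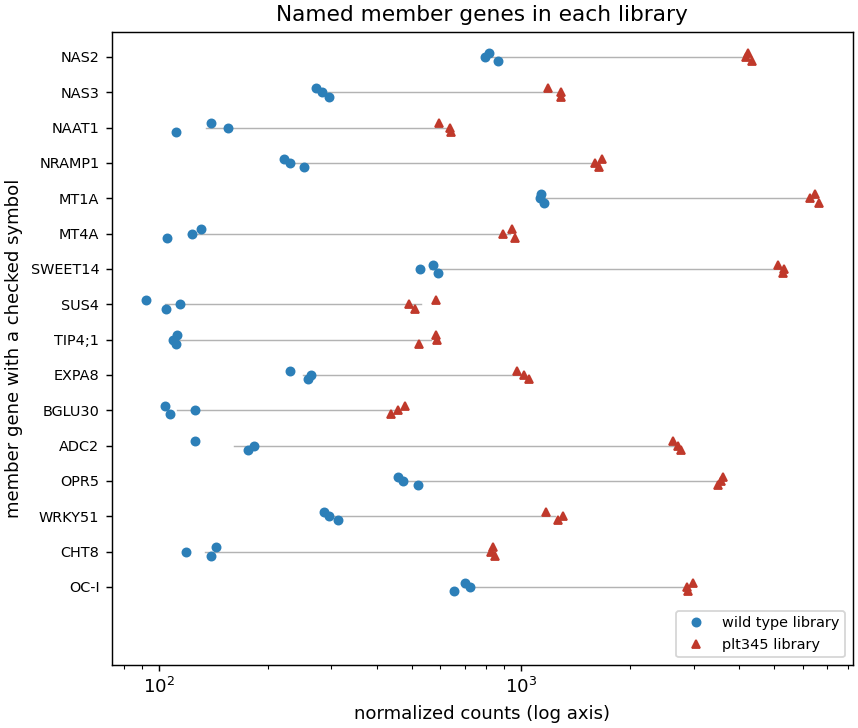
Normalized counts on a log axis (x axis) in each of the 6 libraries for the 16 members with a checked symbol (y axis), with blue circles for wild type and red triangles for plt345 and a grey line joining the means. In each gene the triangles lie right of the circles, as the rule required. The longest line is that of ADC2, with a ratio of 16.7.

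The members with the largest ratios and those with the most normalized counts, a measure that also depends on gene length, were among the 111 with no checked name. LOC_Os04g27980 held 117, 137 and 112 normalized counts in wild type and 4252, 4092 and 4173 in plt345, a ratio of 34.2, the largest of the list. LOC_Os10g21790 held 134, 134 and 132 in wild type and 2367, 2310.0 and 2358 in plt345, a ratio of 17.6. In both, the libraries of a genotype lay close together, and the genotypes were apart as the rule required. LOC_Os03g52370, one of those with the most counts, held 2069, 1946 and 1876 in wild type and 12483, 12313 and 11615 in plt345, a ratio of 6.18. LOC_Os05g02420, the other, held 1614, 1444 and 1609 in wild type and 7293, 7086 and 7317 in plt345, a ratio of 4.65.

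Members were spread over all 12 chromosomes. Chromosome 1 held 25 and chromosome 9 held 2. As a share of the genes with a wild type mean of at least 100, chromosome 10 had the largest with 1.85% (15 members) and chromosome 9 the smallest with 0.232%, against 1.11% on chromosome 1. In 4 places members stood next to each other in locus number. LOC_Os03g52370, LOC_Os03g52380 and LOC_Os03g52390 were 6.18, 4.32 and 4.99 times higher. LOC_Os01g72130, LOC_Os01g72150 and LOC_Os01g72160 were 4.21, 9.47 and 4.71 times higher, and LOC_Os01g72140 between them, under the wild type limit at 22.8, was 10.6 times higher. LOC_Os04g25440 and LOC_Os04g25454 were 5.58 and 6.40 times higher, and LOC_Os12g36220 and LOC_Os12g36240 were 4.14 and 4.96 times higher. Whether neighbouring loci share sequence, and so reads, was not tested.

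**Figure D4:**
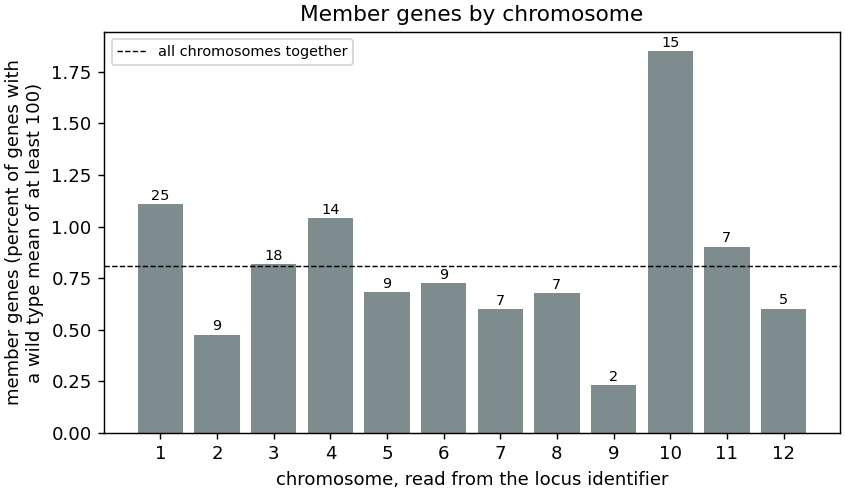
Members as a percent of the genes with a wild type mean of at least 100 normalized counts (y axis) on each of the 12 chromosomes (x axis), with the number of members above each bar and a dashed line for all chromosomes together. The bar of chromosome 10 is the tallest, at 1.85%, and that of chromosome 9 the lowest, at 0.232%.

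The loci listed directly before and after a member, other than members, were compared with all other genes. Of 165 such neighbours with a wild type mean of at least 10, 31 (18.8%) were at least 2-fold higher in plt345 and 4 (2.42%) at least 2-fold lower, against 9.25% and 3.64% of all 22020 genes outside the members at that minimum. Their median ratio was 1.04 against 0.97. The limma fit took genes with a mean of at least 10 over all 6 libraries, which 186 neighbours had. Some of these, and some of the other genes, entered only through their plt345 level, which can raise the share called higher. Of the 186 neighbours 83 (44.6%) were higher and 54 (29%) lower, against 33.7% and 34.2% of all tested genes outside the members. This is a description, and the difference was not tested.

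Marker genes of cell types moved in the same libraries, in which 34.0% of all tested genes were higher and 34.0% lower. Summed levels of 6 xylem secondary wall markers ran from 4354 to 4418 normalized counts in wild type and from 9074 to 9487 in plt345, and all 6 were higher. Those of 5 endodermis and exodermis markers ran from 4181 to 4393 and from 8873 to 9167, with 3 higher and 1 lower. One of them, LSI2 (LOC_Os03g01700), met the selection rule and is a locus left out of the members by name. Its mean was 540 in wild type and 2545 in plt345, so part of that rise was chosen by the same contrast. Summed levels of 4 root hair markers ran from 2747 to 2958 and from 3181 to 3337, with 3 higher. Those of 6 genes listed for dividing cells ran from 6769 to 7005 and from 5144 to 5306, with 5 lower and 1 higher. That list includes QHB, a gene of the quiescent centre, where cells seldom divide. Summed levels of 7 shoot and photosynthesis markers ran from 4057 to 4291 and from 3173 to 3213, and of the 4 tested 1 was higher and 2 lower. GLN2 made up most of that sum, and the locus entered as RBCS2 was at 0 in every wild type library. The part of any of these shifts in the members' levels was not tested.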

How the data were processed

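RNA-seq libraries of paired ends were sequenced on a BGISEQ-500, per the labels' protocols, 3 of each genotype, which the genotype label gives. HISAT2, featureCounts 2.0.0 and DESeq2 1.38.3 are the tools listed, per the submitters' processing notes. Neither the genome build nor the strand setting nor the handling of shared reads is stated in those notes or labels, so values of near-identical, overlapping or antisense genes are uncertain.

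The authors deposited 1 table. The authors made the signal in its library columns by dividing read counts by size factors, per the file headers and the values, and it is never negative. All values were whole multiples of 1 read within 0.01 of a read, so reads were recovered, 20759896 to 21309371 per library. The deposited table also has, from DESeq2 per the file headers, a log2 fold change with its error, a Wald score and p-values. Among these only the adjusted p-value and the sign of the log2 value entered, as an alternative.

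The members and all gene lists were chosen with earlier results of these data known. Members were described only. All genes with a mean of at least 10 were tested in 1 fit on log2(value + 1) with limma 3.58.1 (R 4.3.3, trend, two-sided, Benjamini-Hochberg adjusted p under 0.05), and fold changes of low genes are understated by the pseudocount of 1. Reads were also tested with edgeR 4.0.16 and DESeq2 1.42.0. In edgeR the biological coefficient of variation was 2.72%, so small changes passed. Whether so small a spread includes variation between plants is not known, and very small p-values carry that limit. The fit was tested on simulated data with 200 changed genes and the same variability in every gene. In these data 7886 genes were called higher and 7865 lower, so the simulation cannot vouch for these calls. Other alternatives were library totals, TMM factors, pseudocounts, filters, a replicate block and leaving out each library.

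Named genes were all members with a checked symbol, the 2 members highest in wild type and the 2 with the largest ratio, members adjacent in locus number, and up to 4 other genes of a list by mean level. A pair of symbol and locus matched, and was used by name, when the reference table (assembly ASM3414082v1) held the symbol on that chromosome. Its place there had to lie no more than 1 Mb from the interpolated place. List counts, list medians and marker sums left out only contradicted pairs, so they also include loci whose symbol was not found. Of 534 pairs 349 matched, 173 were not found and 12 were contradicted, and of 8 added after the values were seen 5 matched. A match makes a pair plausible and does not prove that both identifiers are 1 gene. Of 17 members with a listed locus 11 have a checked symbol, 5 whose symbol was not found are only counted, and 1 with a contradicted pair was left out of its list.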

Additional observations from a re-analysis of the deposited data

How the results depend on the processing

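The number of members follows from its limits. It was 254 with a wild type minimum of 50 and 55 with 200, 241 with a fold minimum of 3 and 73 with 5, and 127 with no condition on overlap. Leaving out each library in turn gave 119 to 131 genes, of which 115 to 126 were among the 127. With library totals in place of the deposited scaling 135 genes met the rule, 117 of them members, and the lowest ratio among the 127 was then 4.26. The median ratio was 5.71 with library totals and 5.31 to 5.45 when single libraries were left out. Ratios of the 16 named members were compared with the spread between libraries. With library totals 4 moved by more than that spread (OC-I 4.47, NAS2 5.49, SWEET14 9.91, MT1A 6.04), and the others by less. None moved more when single libraries were left out. That outcome was fixed, because leaving out a single library shifts a mean of 3 by less than their standard deviation. It therefore says nothing on how stable the ratios are.

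Of the genes tested, 6063 to 9362 were higher under the alternatives and 6014 to 8054 lower, within 1.5 times 7886 and 7865. Under library totals, edgeR, the replicate block and each library left out, 123 of 126 list counts stayed within 1.5 times, and the iron list had 19 to 20 genes higher and 4 to 7 lower. With a minimum mean of 50 it had 16 higher and 6 lower of 25 tested. Replicate numbers were not taken as pairs, since same-numbered libraries correlated at 0.07, 0.05 and 0.03, each highest with its own number as a hint. A replicate block gave 7941 higher and 7972 lower. Depth allowed single reads to be resolved, but 3 libraries a genotype limit how well the spread is known.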
